A study of Mus musculus with 6 samples.

Results

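The late response of N18-Fms murine prostate cancer cells to CSF-1 (macrophage colony-stimulating factor) was read from 4 single-color expression arrays. Cells had received CSF-1 (100 ng/mL) during 48 h on 2 of them, and none on the other 2. A gene was compared when its brightest probe was well above background, by the test of the scanner software, on both arrays of at least 1 of these groups. This held for 23932 genes, out of 36028 with a usable probe and 36163 gene names on the array. The 2 remaining arrays of the series, of cells stimulated for 24 h, entered the estimate of the spread and the choice of usable and brightest probes. Their values are given beside those at 48 h for some genes.

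All of these cells share 1 genetic background. The parental C2H line is a clonal line from a tumor of the TRAMP model, in which a transgene drives cancer of the mouse prostate. N18 is 1 neomycin-resistant clone of it that carries a luciferase vector. Murine c-fms, which encodes CSF-1R, was then introduced with a retrovirus, and cells with the receptor at their surface were sorted by flow cytometry. The unstimulated cells therefore carry the receptor too, and per the study these cells also secrete CSF-1, so the comparison is of added CSF-1 against none added, not of signaling against no signaling. The medium of all groups held serum and dihydrotestosterone. The control arrays are labelled vehicule, while the treatment protocol calls those cells unstimulated. The labels give 24 h and 48 h of stimulation, whereas the methods text gives shorter times, and the labelled times are used here. RNA came from independent experiments, and 1 clone stands behind every value.

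CSF-1R is a receptor tyrosine kinase of the macrophage lineage. On binding of CSF-1 or of IL-34 it dimerizes and is phosphorylated, signals through ERK, PI3K, SRC and STAT proteins, and is internalized with its ligand. Interferons act through other receptors, whose JAK kinases activate STAT proteins, and these, with IRF9, bind interferon-stimulated response elements in the promoters of antiviral and antigen presentation genes.

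At an adjusted p-value under 0.05 and a change of at least 2-fold, 978 genes were upregulated at 48 h, which is 4.09% of the genes tested, and 366 were downregulated, 1.53%. The test was limma's moderated test, 2-sided, and each adjusted p below is its Benjamini-Hochberg value across the whole set of 23932. At any fold change, 1673 genes were higher (6.99%) and 2005 were lower (8.38%) with an adjusted p under 0.05. Increases were larger than decreases: 420 upregulated genes reached a fitted 4-fold and 135 a fitted 16-fold, against 64 and 2 of the downregulated genes. The median log2 fold change was 1.76 among the upregulated and -1.30 among the downregulated genes, against -0.05 over all genes tested, with a median standard error of 0.151. When arrays were centred on their median instead of their 75th percentile, the median of all genes moved to -0.15, and 880 genes were upregulated and 560 downregulated. The share of increases among the calls was then 61.1% in place of 72.8%. Without unstimulated array 1 632 genes were upregulated and 238 downregulated, without unstimulated array 2 698 and 242, and without 48 h array 2 726 and 243. Genes that RefSeq names were called more often (5.19% up and 2% down of 15267) than the other names of the array, many of them predicted transcripts (2.14% up and 0.704% down of 8665).

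**Figure D1:**
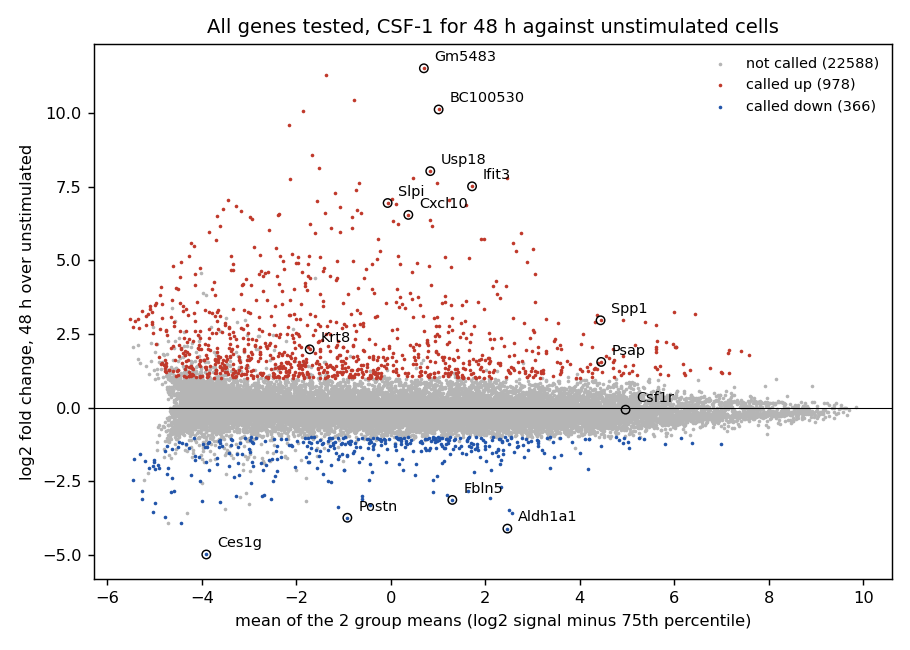
Each point is 1 of the 23932 genes tested, with the mean of both group means on the x axis (log2 signal, with the array's 75th percentile subtracted) and the log2 fold change of 48 h over unstimulated on the y axis. The 978 genes called up (red) reach beyond 11 on the log2 scale, the 366 called down (blue) reach about -5, and Csf1r lies at -0.07.

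Signal limits part of these changes. Of the 978 upregulated genes, 726 were well above background on all 4 arrays, 79 on 1 of 2 unstimulated arrays and 173 on neither. Of the 366 downregulated genes, 305 were above background on all 4 arrays, 24 on 1 of 2 arrays at 48 h and 37 on neither. For a gene above background on neither array of its dimmer group, the fold change is given as a lower limit, in which each dim array counts with the lowest signal well above background, or the probe's own where that is higher. Such a limit applies to the main processing only. Under alternative settings the fitted log2 fold change fell below it in some genes, to 3.60 for Rsad2 and 1.14 for Tap1. Between 58.7% and 72% of the 59305 spots of an array were well above background, and 0 were saturated. The 4 arrays were on 1 slide, while 1 of the 24 h arrays was on another. Replicate arrays had a Pearson correlation of 0.9934 (unstimulated) and 0.9931 (48 h) across genes, which are not independent replicates, and an SD of their difference of 0.373 and 0.377 on the log2 scale. The smallest p-value of an exact permutation test with 2 arrays in each group is 0.333, so single genes were tested only in the fit across all genes. With so few arrays, 5685 of the 23932 genes had both 48 h arrays above both unstimulated arrays and 8587 had both below, so groups that do not overlap are common. Arrays 1 and 2 of a group are the replicates of the labels. Each of the 6 arrays was left out in turn, and a named call held in all 6 cases, with an adjusted p under 0.05 and at least 2-fold, unless stated otherwise.

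The label of the cells was checked against cell type markers. Here and below, a level is the log2 signal of the gene's probe after subtraction of the array's 75th percentile. Among prostate epithelial markers, Krt8, a keratin of luminal epithelium, was above background on all 4 arrays, at -3.04 and -2.37 without CSF-1 and at -0.88 and -0.58 at 48 h. Krt19 was also above background on all 4 arrays, at -4.29 and -3.59 without CSF-1 and at -3.76 and -3.62 at 48 h. The adherens junction gene Cdh1 was above background on none of these arrays, and Krt18 and Epcam on 1 array each, at 48 h, so epithelial markers were partly absent. All 3 neuroendocrine markers were above background on both unstimulated arrays, and 2 were on both 48 h arrays. Among them, Syp was at 4.84 and 4.70 without CSF-1. Of 13 macrophage and myeloid markers, 6 were above background on both unstimulated arrays, and on both 48 h arrays. These were the transduced Csf1r, Itgam, Fcer1g, Cd14, Ptprc and Emr1. Without CSF-1, Itgam was at 5.40 and 5.23, Fcer1g at 2.13 and 1.84, and Cd14 at 0.98 and 1.08. The myeloid factor Spi1 and the genes Lyz2 and Laptm5 were above background on none of the 4 arrays. Of 4 endothelial markers, Pecam1 was above background on all 4 arrays, Cdh5 and Tek on both 48 h arrays and 1 unstimulated array, and Tie1 on none. Of 7 lymphocyte markers 5 were above background on both unstimulated arrays. No lymphocyte marker was called, out of 16 tested from a longer list.

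The receptor axis itself changed in part. Csf1r was at 4.88 and 5.13 in unstimulated cells and at 4.96 and 4.90 at 48 h. The groups overlap, and its log2 fold change was -0.07 (SE 0.14, adjusted p 0.788). Csf1, the ligand made by these cells, was at 4.08 and 4.28 without and at 3.18 and 3.77 with added CSF-1, a difference of -0.70 (SE 0.29, adjusted p 0.175) at its brightest probe. Its other probes gave -1.35 and -1.33, so the probes disagree about the size. Il34, the other ligand of the receptor, was at 0.25 and 0.21 without CSF-1 and at 1.99 and 1.88 at 48 h. It rose 3.26-fold (adjusted p 0.00165). Spp1, which encodes osteopontin, a secreted phosphoprotein of bone and of macrophages that binds integrins and CD44, rose from 2.55 and 3.36 to 5.79 and 6.05. This is a 7.82-fold increase (log2 fold change 2.97, SE 0.29, adjusted p 0.00466), against a log2 fold change of 3.43 at 24 h. Of 12 tested genes of the receptor axis, 4 were upregulated and 0 downregulated. The other upregulated ones were Ptpn6, the SHP-1 phosphatase (1.16, adjusted p 0.0314), and the kinase gene Fes (1.09, adjusted p 0.0147), picked after its values were seen. The list had 2 calls without either unstimulated array or 48 h array 2, where the calls of Fes (adjusted p up to 0.0866) and Ptpn6 were lost. The Ptpn6 call was also lost without 48 h array 1 (adjusted p up to 0.133).

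Interferon-induced antiviral genes made up a large group of strong increases. Of 46 tested, 37 were upregulated and 0 downregulated, with a median fitted log2 fold change of 4.02, and 32 to 37 were upregulated with 1 array left out. The median was 3.81 with the lower limit in place of the fitted value in 5 genes. Usp18, an ISG15 protease that also dampens the type I interferon receptor, was at -3.84 and -2.53 in unstimulated cells and at 4.47 and 5.23 at 48 h (probe at chr6:121220874-121220933, mm9). Every 48 h array lay above every unstimulated array, and the increase was 262-fold (log2 fold change 8.04, SE 0.47, adjusted p 0.00123). Oas1a, whose product makes the messenger that activates RNase L, rose from -3.60 and -2.10 to 4.49 and 5.08, which is 199-fold. Ifit3 and Ifit1 encode proteins that bind viral RNA or its partners. Ifit3 went from -2.44 and -1.64 to 5.23 and 5.72 (183-fold, adjusted p 0.000724). Ifit1 went from -4.33 and -4.56 to 2.45 and 3.45 (168-fold, adjusted p 0.000804). Oasl2, a relative of the oligoadenylate synthetases, rose 136-fold. Also in the list, and picked after their values were seen, were the ubiquitin-like modifier Isg15 (log2 fold change 5.93) and the RNA sensor Ddx58 (3.36). The antiviral GTPase gene Mx1 and Rsad2, or viperin, were above background on neither unstimulated array and rose at least 27.9-fold and 48.9-fold. Not called were Adar at 0.29 (adjusted p 0.161), Trim25 at 0.38 (adjusted p 0.233) and Oas1b at -0.08 (adjusted p 0.648), so the list did not move as 1 block. At 24 h, against the same unstimulated arrays, Usp18 had a log2 fold change of 6.66, Oas1a of 5.56, Ifit3 of 6.14 and Ifit1 of 5.73.

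**Figure D2:**
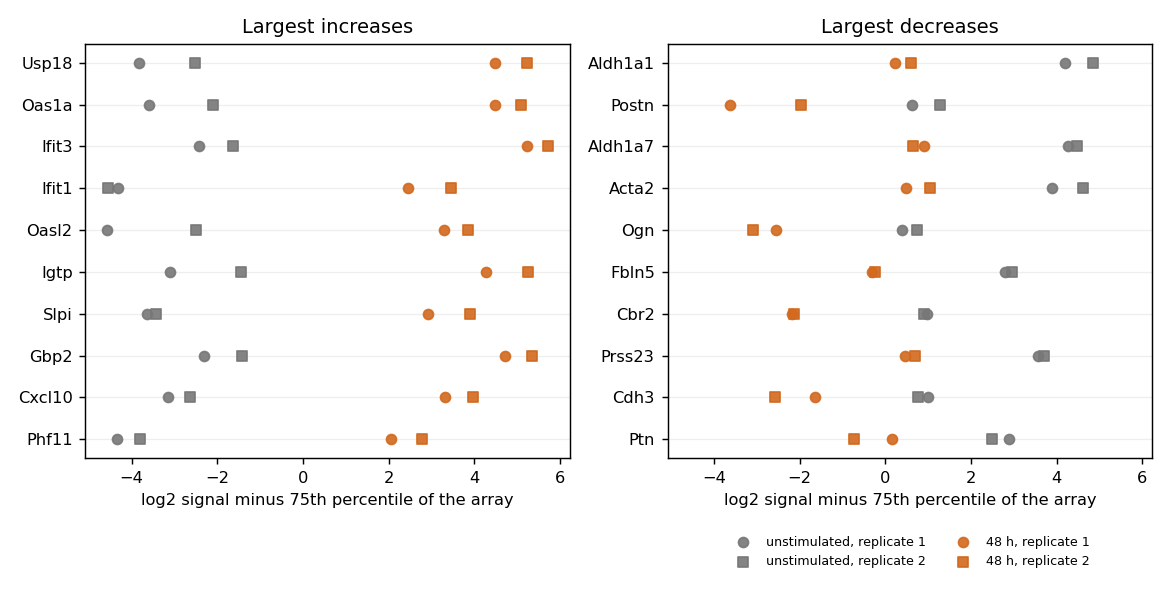
Levels (log2 signal, with the array's 75th percentile subtracted) on the 2 unstimulated arrays (grey) and the 2 arrays at 48 h (orange) for 20 called genes, the 10 that rose most and the 10 that fell most among those listed under a current RefSeq symbol and above background on all 4 arrays. The means differ by 262-fold in Usp18 and by 17.3-fold in Aldh1a1.

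The promoters of these genes are shown because they carry the element named above. The 250 bases before the start of Oas1a (chr5:120907526-120907775, minus strand), Ifit3 (chr19:34583279-34583528, plus strand), Ifit1 (chr19:34640639-34640888, plus strand) and the chemokine gene Cxcl10 (chr5:92348890-92349139, minus strand) follow, from the RefSeq promoter table of GRCm38.p6, 5′ to 3′. Capitals mark each match to GAAA, any 2 bases, GAAA, on either strand.
Oas1a: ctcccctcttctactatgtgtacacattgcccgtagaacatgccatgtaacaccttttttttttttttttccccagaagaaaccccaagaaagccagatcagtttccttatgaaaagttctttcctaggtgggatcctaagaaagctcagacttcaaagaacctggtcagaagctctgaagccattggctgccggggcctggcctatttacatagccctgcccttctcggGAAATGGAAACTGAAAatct
Ifit3: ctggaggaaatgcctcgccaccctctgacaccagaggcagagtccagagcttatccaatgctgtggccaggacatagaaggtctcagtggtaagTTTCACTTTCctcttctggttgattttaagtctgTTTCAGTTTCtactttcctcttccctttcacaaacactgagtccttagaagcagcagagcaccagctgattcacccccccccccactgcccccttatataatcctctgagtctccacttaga
Ifit1: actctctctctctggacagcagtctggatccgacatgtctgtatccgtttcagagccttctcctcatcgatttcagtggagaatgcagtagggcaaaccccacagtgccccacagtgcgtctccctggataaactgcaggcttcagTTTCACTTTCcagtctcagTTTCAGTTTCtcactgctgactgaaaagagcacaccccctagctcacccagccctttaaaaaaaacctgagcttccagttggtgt
Cxcl10: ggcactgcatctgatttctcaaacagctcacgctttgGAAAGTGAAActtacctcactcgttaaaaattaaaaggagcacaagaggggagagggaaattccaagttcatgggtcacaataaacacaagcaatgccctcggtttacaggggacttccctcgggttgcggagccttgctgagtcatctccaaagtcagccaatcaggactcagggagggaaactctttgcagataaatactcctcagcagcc
Oas1a has overlapping matches close to its start, at -20 and -14. Ifit3 has separate matches at -156 and -122, Ifit1 has separate matches at -104 and -85, and Cxcl10 has 1 at -213. Positions count the leftmost base of the match back from the start. Of the other sites defined below, Oas1a has 1 gamma-activated site match, and Ifit3 and Cxcl10 have AP-1 site matches at -56 and -74.

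The letters of the interferon-stimulated response element were looked for in the promoters of all genes. Of 10547 tested genes with a promoter in the table, 337 had a match (3.2%). The share was 9.04% among 520 upregulated genes, 3.48% among 201 downregulated genes and 2.88% among genes not called. Of 26 upregulated antiviral genes with a promoter, 10 had a match. Of the 12 upregulated GTPase genes of the next paragraph, 8 had a promoter in the table, and all 8 had a match. The AP-1 site (TGA, any base, TCA) was in 15% of promoters of upregulated genes, 7.46% of downregulated genes and 6.27% of all genes tested. The gamma-activated site (TTC, any 3 bases, GAA) was in 9.04%, 7.46% and 7.36%. Both strands were searched, sites may overlap each other, and a match is a string of letters in this window and not a site shown to be bound.

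The GTPases induced by interferon-gamma, which attack the vacuoles of intracellular parasites, followed the antiviral genes. Of 14 tested, 12 were upregulated and 0 downregulated (median fitted log2 fold change 4.20), and 10 or 11 with 1 array left out. The median was 3.35 with the lower limit in place of the fitted value in 2 genes. Igtp, or Irgm3, rose from -3.11 and -1.45 to 4.27 and 5.25 (132-fold, adjusted p 0.00336). Gbp2, a guanylate-binding protein, rose from -2.31 and -1.42 to 4.72 and 5.34 (119-fold, adjusted p 0.00111). Irgm2 had the highest fitted log2 fold change of the list, 8.14, but was above background on 1 of 2 unstimulated arrays. Gbp9 was at 0.09 and Gbp10 at 0.01. Members of this family are close in sequence, and how far their probes tell them apart was not tested.

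Among the factors that carry interferon signals, 8 of 23 tested were upregulated and 0 downregulated (6 to 8 upregulated with 1 array left out). Irf7, the factor of late interferon production, rose from -4.45 on both unstimulated arrays to 0.25 and 0.67 (30.1-fold, adjusted p 0.000724). Stat2 rose from -0.83 and -0.57 to 2.71 and 2.98 (11.7-fold), and its partner Irf9 6.90-fold. The receptor gene Ifngr1 had a log2 fold change of -0.68, under the 2-fold limit. The interferon genes themselves gave little signal. Ifnb1 and Ifna4 were above background on 0 of the 6 arrays and Ifng on 1, and Ifna1 and Ifna2, which were tested, had log2 fold changes of -0.04 (adjusted p 0.874) and 0.42 (adjusted p 0.183).

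Genes that load and display peptides on MHC class I rose as well, 18 of 26 tested, with a median log2 fold change of 2.06 and 0 downregulated. With 1 array left out the count was 14 to 18. The heavy chain gene H2-D1 was at -1.61 and -1.22 in unstimulated cells and at 3.46 and 3.94 at 48 h, a 34.6-fold increase (adjusted p 0.00111). H2-Q7 rose 30.4-fold, from -1.98 and -1.86 to 2.79 and 3.22. Heavy chain genes are alike in sequence, so signal at 1 probe may come from another locus. Tap2 and Tap1, the subunits of the peptide transporter, were above background on neither unstimulated array and rose at least 32.2-fold and 5.36-fold. Tap1 was picked after its values were seen, as were the light chain B2m (log2 fold change 2.06), the immunoproteasome subunit Psmb9 (4.66, with 1 of 2 unstimulated arrays above background) and Nlrc5, the coactivator of these genes (at least 7.74-fold). The call of Psmb9 was lost without either 48 h array (adjusted p up to 0.0797) and that of Nlrc5 without 48 h array 2 (0.07). Calr, a chaperone of the endoplasmic reticulum that is not specific to this pathway, stood at -0.45. MHC class II genes were mostly not measured above background: 6 of 10 were tested, and 1 was called, H2-DMb1 (1.46, adjusted p 0.0297), which lost its call without each array except unstimulated array 2 (adjusted p up to 0.115).

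The highest fitted increase of all genes tested was in a stefin, Gm5483. Stefins inhibit cysteine proteases, and the SPRR proteins build the envelope of squamous cells. Of 17 tested, 9 were upregulated and 0 downregulated (6 to 9 with 1 array left out). BC100530, a stefin gene, was at -4.16 and -3.95 in unstimulated cells and at 5.85 and 6.30 at 48 h, a 1120-fold increase (log2 fold change 10.13, SE 0.23, adjusted p 0.000355). Gm5483 went from -5.70 and -4.43 to 6.27 and 6.66, with a fitted log2 fold change of 11.53, and was above background on 1 of 2 unstimulated arrays. Stfa2l1, above background on neither, rose at least 574-fold. Sprr2d rose at least 23.5-fold, and Sprr2h had a log2 fold change of 6.16 (adjusted p 0.0559 without unstimulated array 1). Both were picked after their values were seen. These stefin genes are near copies of each other, so their signals may not be separate. 2010005H15Rik, another stefin gene (RefSeq Csta2), had a log2 fold change of 7.82, I830012O16Rik (RefSeq Ifit3b) of 7.81 and D14Ertd668e (RefSeq Phf11d) of 6.91. These 3 were picked after their values were seen. They and BC100530 are on the array under older names, which keeps them out of the 20 genes plotted above. Slpi, a secreted protease inhibitor of mucosal surfaces outside this list, rose from -3.65 and -3.43 to 2.91 and 3.90 (124-fold, adjusted p 0.00114). Of keratins, Krt8 rose among the 10 tested (1.98, adjusted p 0.00923, lost without 48 h array 2 at 0.0519). Krt7 was lower (-1.97, adjusted p 0.0382), a call that was lost without any 1 of the 4 arrays compared (adjusted p up to 0.152).

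Other genes not above background before stimulation gave high limits. The transcript ENSMUST00000077110 was at -7.04 and -6.99 in unstimulated cells and at 3.98 and 4.56 at 48 h, at least 511-fold higher. Its probe (chr16:36136075-36137745, mm9) lies near that of the stefin gene Stfa2l1 (chr16:36160118-36161876), which was at 4.16 and 4.72 at 48 h. Whether these are separate signals was not tested. Gm4847 rose at least 242-fold, the collectin gene Colec10 at least 166-fold, and Slitrk6, a neuronal membrane protein, at least 164-fold. Phf11, a nuclear protein gene that was above background in unstimulated cells too, rose 89.5-fold, from -4.34 and -3.80 to 2.05 and 2.78.

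Chemokines moved in both directions. Cxcl10, the interferon-induced ligand of CXCR3, rose from -3.16 and -2.64 to 3.31 and 3.97 (93.5-fold, adjusted p 0.000724). Ccl8 rose 17.7-fold, from 0.32 and 0.42 to 4.31 and 4.72, and Ccl12 at least 36-fold. With Cxcl1, Ccl7 and Ccl2, which draw neutrophils or monocytes and were picked after their values were seen, 6 of 18 tested were upregulated. The calls of Ccl7 and Ccl2 were lost without either unstimulated array (adjusted p up to 0.0957 and 0.0822). Cxcl12, the ligand of CXCR4, was at 3.63 and 3.73 in unstimulated cells and at 0.74 and 1.25 at 48 h. It was 6.45-fold lower (adjusted p 0.0123), a call that was lost without either unstimulated array or 48 h array 1 (adjusted p up to 0.0744). Ccl9 was 2.87-fold lower (adjusted p 0.00424), and 1 chemokine was downregulated without either unstimulated array or 48 h array 1. Of 13 interleukins tested 3 were upregulated, also with any 1 array left out. Il33, a nuclear alarmin, rose from 0.52 and 1.04 to 5.08 and 5.59 (23.5-fold). Il6 rose from -6.86 and -5.44 to -0.28 and 0.80, with 1 of 2 unstimulated arrays above background (log2 fold change 6.41, SE 0.56, adjusted p 0.00342), and Il18 rose at least 2.43-fold.

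**Figure D3:**
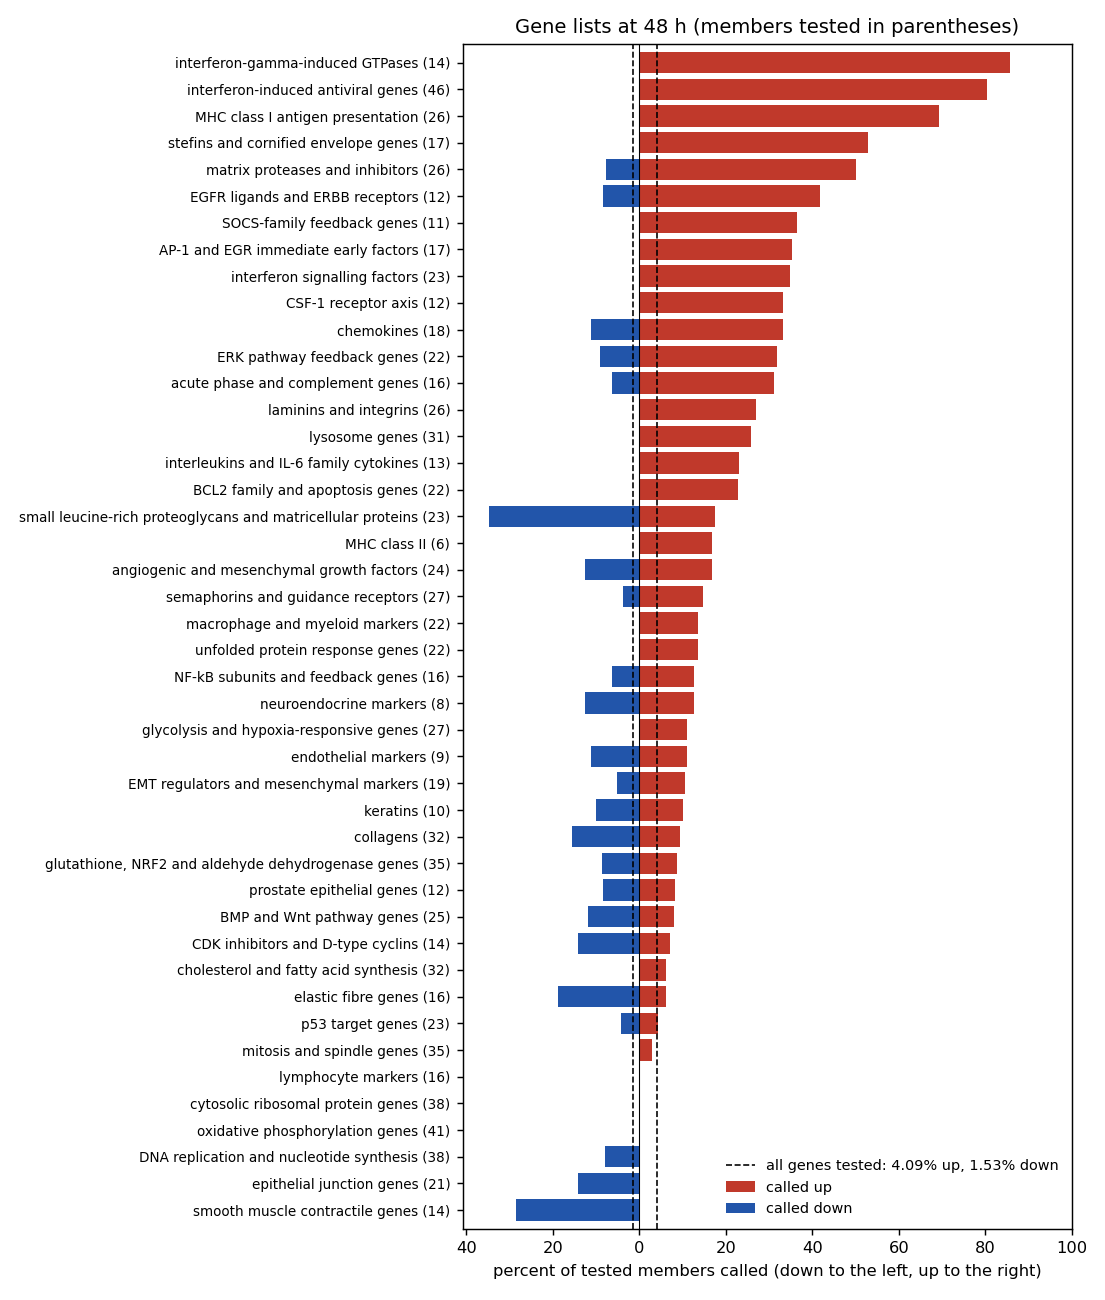
Bars give the percent of tested members of each gene list that were called up (red, to the right) or down (blue, to the left) at 48 h, with the number tested in parentheses. Dashed lines mark the 4.09% up and 1.53% down of all genes tested; GTPases, antiviral genes and MHC class I stand at 85.7%, 80.4% and 69.2% up, while oxidative phosphorylation and ribosomal protein genes have no call.

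Some feedback genes of cytokine and growth factor receptors were upregulated at 48 h. Of 11 SOCS-family genes 4 were upregulated (3 or 4 with 1 array left out), while their median of 0.09 lay near 0 and turned to -0.01 under median centring. Cish, a STAT5 target, rose from -0.63 and -0.61 to 2.20 and 2.66 (8.27-fold, adjusted p 0.00114). Socs3, a brake on the IL-6 receptor, rose from 2.84 and 2.89 to 5.39 and 6.16 (7.5-fold). Their log2 fold changes were 3.05 and 2.91 at 48 h, beside 3.38 and 3.74 at 24 h. Of 22 feedback genes of the ERK pathway 7 were upregulated and 2, Spry1 and Dusp1, downregulated (1 downregulated without any 1 of the 4 arrays compared). The upregulated ones included Spry4, an inhibitor of RAS signaling (4.88-fold, adjusted p 0.00703), and Dusp6, the ERK phosphatase, which rose from 4.24 and 3.84 to 5.82 and 5.78 (3.37-fold, adjusted p 0.00369). Spry1, of the same family as Spry4, fell to 4-fold lower, from -1.72 and -2.13 to -3.73 and -4.12 (adjusted p 0.00519), a decrease that dropped below 2-fold after normexp background correction. Dusp1, another phosphatase of MAP kinases, lost its call without any 1 of the 4 arrays compared (adjusted p 0.0182, up to 0.0903). Immediate early factors were upregulated in 6 of 17, led by Ier3 (4.58-fold, adjusted p 0.00422), Fos (4.29-fold, adjusted p 0.0174) and Atf3 (3.58-fold, adjusted p 0.0154). The Fos and Atf3 calls were lost without either unstimulated array, and that of Fos also without 48 h array 2 (adjusted p up to 0.0907 and 0.0894). The list had 1 call without unstimulated array 2, and 3 without unstimulated array 1 or 48 h array 2. Jun was at -0.28 and Myc at -0.32, neither of them called.

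Of 12 tested ligands and receptors of the EGF receptor family, 5 were upregulated and 1 downregulated. The downregulated one was the ligand gene Nrg1 (log2 fold change -1.05, adjusted p 0.0174), whose call was lost without either unstimulated array or 48 h array 2 (adjusted p up to 0.0864). Betacellulin, Btc, rose from -4.49 and -4.80 to -0.07 and -0.25 (log2 fold change 4.48, adjusted p 0.000724), with 1 of 2 unstimulated arrays above background. Areg, amphiregulin, had a log2 fold change of 2.34 (adjusted p 0.0242), lost without any 1 of the 4 arrays compared (adjusted p up to 0.112). Erbb4 had its 48 h arrays at -2.01 and -4.73, apart by more than most genes, and was at least 2.56-fold higher (adjusted p 0.0489). This call was lost without either unstimulated or either 24 h array (adjusted p up to 0.176). The list gave 2 increases without either unstimulated array and 3 without either 48 h array. Among other growth factors, Angptl4, a secreted regulator of lipoprotein lipase, rose from 3.53 and 4.32 to 6.76 and 6.89 (7.44-fold, adjusted p 0.00537), and Vegfa 3.06-fold (adjusted p 0.0134, lost without either unstimulated array or 48 h array 2, up to 0.0824). One probe of Fgf1 rose at least 12.7-fold, while its other probe, which was above background in unstimulated cells, was at 0.01. Figf, or VEGF-D, was 5-fold lower, from 2.15 and 2.14 to -0.23 and -0.13 (adjusted p 0.00108). The list as a whole had 4 genes up and 3 down of 24, with a median of -0.05, and 2 up without either unstimulated array or 48 h array 2.

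Proteases of the extracellular matrix and their inhibitors were another group above the background share, with 13 of 26 tested upregulated and 2 downregulated and a median log2 fold change of 0.96. The number upregulated was 5 without unstimulated array 1, 8 without unstimulated array 2, and 4 without 48 h array 2. Mmp10, stromelysin-2, went from -3.99 and -3.05 to 0.30 and 1.6 (22.1-fold, adjusted p 0.0155). Mmp13, a collagenase with 1 of 2 unstimulated arrays above background, went from -4.74 and -3.36 to 0.46 and 1.68 (log2 fold change 5.12, adjusted p 0.0105). The Mmp10 call was lost without either unstimulated array or 48 h array 2 (adjusted p up to 0.091), and that of Mmp13 without unstimulated array 1 or 48 h array 2 (up to 0.0581). Serpinb2, an inhibitor of the urokinase Plau, rose from 0.04 and 0.06 to 3.14 and 4.12 (11.9-fold, adjusted p 0.0144, lost without either unstimulated array or 48 h array 2, up to 0.0853). Plau itself had a log2 fold change of 1.91, its receptor Plaur of 1.75 and Timp1, an inhibitor of the metalloproteases, of 1.35. These 3 were picked after their values were seen. The calls of Plau and Timp1 were lost without any 1 of the 4 arrays compared (adjusted p up to 0.105 and 0.145), and that of Plaur without either unstimulated array or 48 h array 2 (up to 0.0833). In the other direction, Timp3, a matrix-bound inhibitor, went from 3.10 and 3.01 to 0.87 and -0.42 (7.13-fold lower, adjusted p 0.0137, lost without either unstimulated array, up to 0.0837), and Adamts5, an aggrecanase, was 4.37-fold lower (adjusted p 0.00273), with its other probe at -0.74.

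Structural matrix genes were among the decreases. Of 23 small leucine-rich proteoglycans and matricellular proteins 8 were downregulated and 4 upregulated, with a median log2 fold change of -0.66. Without single arrays the number downregulated was 3 to 8, lowest without unstimulated array 2, with 5 without unstimulated array 1 and 4 without 48 h array 2. Ogn, osteoglycin, was at 0.38 and 0.73 in unstimulated cells and at -2.55 and -3.08 at 48 h, 10.3-fold lower (adjusted p 0.00753, and 0.0547 without unstimulated array 2). Postn, periostin, went from 0.62 and 1.28 to -3.62 and -1.97 (13.4-fold lower, adjusted p 0.0337), and no longer passed without any 1 of the 4 arrays compared (adjusted p up to 0.143). Its 48 h arrays were far apart, yet both lay below the unstimulated ones. Dcn, decorin, went the other way, from -3.27 and -2.50 to -0.34 and 0.12 (6.85-fold higher, adjusted p 0.00642), and so did Sparcl1 (4.57-fold). Ctgf and Cyr61, targets of the YAP coactivator picked after their values were seen, had log2 fold changes of -2.10 and -2.13, and both calls were lost without any 1 of the 4 arrays compared (adjusted p up to 0.163 and 0.147).

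Elastic fibre genes moved in both directions. Fbln5 was at 2.79 and 2.95 in unstimulated cells and at -0.30 and -0.24 at 48 h, 8.80-fold lower (log2 fold change -3.14, SE 0.18, adjusted p 0.00116). Efemp1, fibulin-3, was 4.10-fold lower and Fbn1, fibrillin-1, 2.96-fold lower. Eln was at 0.14. In all, 3 of 16 elastic fibre genes were downregulated and 1 was upregulated. The upregulated one was Fbln1, fibulin-1 (log2 fold change 1.04, adjusted p 0.042), and its call was lost without any 1 of the 4 arrays compared (adjusted p up to 0.168). Of 32 collagens and their processing enzymes 5 were downregulated and 3 upregulated (2 to 5 downregulated with 1 array left out, 2 without unstimulated array 2 and 3 without unstimulated array 1). The fibrillar gene Col1a2 went from 7.63 and 7.58 to 6.64 and 6.10 (2.35-fold lower, adjusted p 0.0186, lost without either unstimulated array or 48 h array 2, up to 0.0983). Col1a1, picked after its values were seen, was at -1.19, lost without either unstimulated array (adjusted p up to 0.0509). Col18a1, of basement membranes, rose 4.08-fold, from 1.08 and 1.2 to 3.27 and 3.06 (adjusted p 0.00243). Col12a1 was at least 2.47-fold lower, lost without either unstimulated array (adjusted p up to 0.0645).

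Contractile genes of smooth muscle had 4 of 14 tested downregulated and 0 upregulated (median -0.54). Acta2, smooth muscle actin, was at 3.88 and 4.61 in unstimulated cells and at 0.48 and 1.05 at 48 h. It was 11.1-fold lower (log2 fold change -3.48, SE 0.45, adjusted p 0.0104), a call lost without unstimulated array 2 or 48 h array 1 (adjusted p up to 0.0624). Cnn1, calponin, was at -1.10 and -0.87 in unstimulated cells and at -4.45 and -3.72 at 48 h, with 1 of 2 arrays at 48 h above background (log2 fold change -3.10, adjusted p 0.00286). Without single arrays 1 to 5 genes of the list were called, 1 without unstimulated array 2 and 2 without unstimulated array 1 or 48 h array 1. In bulk RNA, fewer cells that express a gene and less RNA per cell cannot be told apart.

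Adhesion molecules were divided. Cdh3, P-cadherin, was at 0.99 and 0.77 in unstimulated cells and at -1.64 and -2.58 at 48 h, 7.95-fold lower (adjusted p 0.00717, and 0.0556 without unstimulated array 1). The desmosomal plakophilin Pkp1 was 4.80-fold lower, from -0.41 and -0.21 to -2.53 and -2.61 (adjusted p 0.00111). With Pkp2, 3 of 21 epithelial junction genes were downregulated and 0 upregulated, and the median was 0.06, or -0.036 under median centring. Among laminins and integrins 7 of 26 were upregulated (4 without either unstimulated array) and 0 downregulated, while the median of 0.08 turned to -0.018 under median centring. Itgb3, the beta chain of the vitronectin receptor, rose at least 6.66-fold (adjusted p 0.0122), lost without either unstimulated array or 48 h array 2 (adjusted p up to 0.0733), and Itga7 rose 2.99-fold (adjusted p 0.00507). Of 27 semaphorins and guidance receptors 4 were upregulated and 1 was downregulated. Sema7a rose from -4.31 and -3.27 to 0.81 and 1.08 (26.6-fold, adjusted p 0.00367), Sema3a rose 5.36-fold, and Nrp1, a receptor for class 3 semaphorins and VEGF, fell from 0.02 and 0.13 to -1.92 and -2.17 (4.37-fold lower, adjusted p 0.00133).

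**Figure D4:**
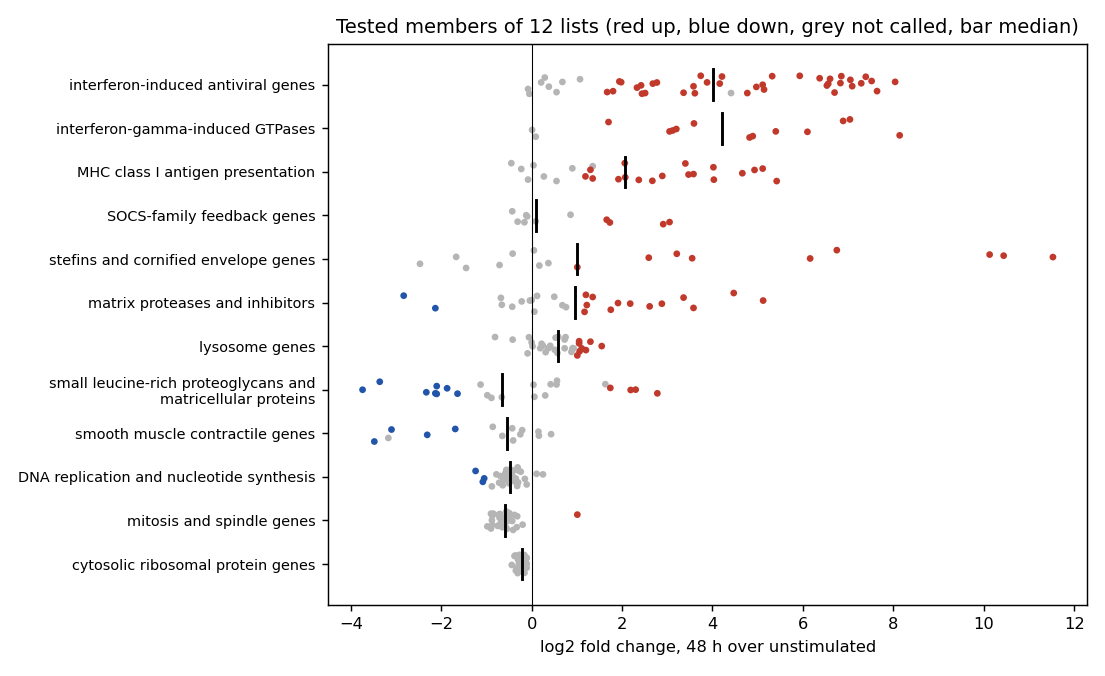
Each point is 1 tested member of 12 gene lists, with its log2 fold change of 48 h over unstimulated on the x axis; red members were called up, blue ones down, grey ones not, and the bar marks the list's median. The medians of fitted values run from 4.20 for the GTPases and 4.02 for antiviral genes to -0.66 for small leucine-rich proteoglycans and matricellular proteins, with -0.22 for ribosomal protein genes. With lower limits in place of fitted values, those of the GTPases and antiviral genes are 3.35 and 3.81.

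The largest decrease among genes above background on all 4 arrays was in an enzyme of retinoic acid synthesis. Aldh1a1, which oxidizes retinal, was at 4.20 and 4.85 in unstimulated cells and at 0.22 and 0.60 at 48 h (probe at chr19:20717764-20717823, mm9). It was 17.3-fold lower (log2 fold change -4.11, SE 0.29, adjusted p 0.00198). Aldh1a7, its close relative, went from 4.27 and 4.47 to 0.90 and 0.65 (12.1-fold lower), and the sequence of both genes is alike enough that 1 may add to the signal of the other. In the same list, Rdh10, which makes retinal, was 2.62-fold higher (adjusted p 0.0294), a call lost when any 1 of the 6 arrays was left out (adjusted p up to 0.114). Of 35 genes of glutathione metabolism, the NRF2 response and aldehyde oxidation, 3 were upregulated, or 1 without any 1 of the 4 arrays compared, and 3 downregulated. Cbr2, a carbonyl reductase, was 8.56-fold lower (other probe -1.26 on the log2 scale), the serine protease gene Prss23 8.40-fold and Ptn, pleiotrophin, 7.82-fold lower. Prss23 went from 3.57 and 3.71 to 0.45 and 0.70, and Ptn from 2.88 and 2.48 to 0.15 and -0.73. Among genes above background on neither array at 48 h, the limits were at least 9.59-fold lower for the carboxylesterase Ces1g, 6.28-fold for Mn1 and 4.76-fold for Bach2. These calls were lost without any 1 of the 4 arrays compared (adjusted p up to 0.0673, 0.0966 and 0.104). Dlc1, a RhoGAP, was 4.95-fold lower, its limit being equal to its fitted value, and 1700022F17Rik was at least 4.58-fold lower. Under alternative settings the smallest decreases of these 2 genes were log2 fold changes of -0.98 and -1.36. Bmp4 was 5.57-fold lower, from 2.23 and 2.03 to -0.29 and -0.41 (adjusted p 0.00103), and Id2, a target of BMP signaling, 2.81-fold lower, while the activin antagonist Fst had a log2 fold change of 4.22 with 1 of 2 unstimulated arrays above background.

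Most genes of DNA replication and mitosis had a lower mean at 48 h. Of 38 replication and nucleotide synthesis genes 36 had a lower mean at 48 h, with a median log2 fold change of -0.48, against 13395 lower genes and a median of -0.05 among all 23932. At an adjusted p under 0.05 and any fold change, 18 were lower and 0 higher, beside 8.38% lower in the background, and at 2-fold 3 were called. These were Rfc5 of the clamp loader (2.37-fold lower), Tk1, thymidine kinase (2.12-fold), and Ccna2, cyclin A2 (2.06-fold, lost without either unstimulated array or 48 h array 2, adjusted p up to 0.064). Tk1 went from 5.95 and 5.83 to 4.86 and 4.75. Of 35 genes of mitosis and the spindle, 34 had a lower mean (median -0.58), 19 were lower at an adjusted p under 0.05 and 1 was higher. The exception was Pttg1, securin, at 1.01 (adjusted p 0.00641), whose other probe was at 0.35. Its call was lost without unstimulated array 2 or 48 h array 2, with the mean of its probes, under median centring and after normexp correction with the 75th percentile, as its fold change was then under 2. Mki67, the proliferation marker, was at -0.41. With an unstimulated array or a 48 h array left out, 2 or 3 of the 38 replication genes and 1 to 3 of the 35 mitosis genes passed at any fold, and without either 24 h array 9 and 14 did. In these cases 35 to 37 of the replication genes and 32 to 34 of the mitosis genes had a lower mean.

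Cell cycle inhibitors and p53 targets did not move together. Cdkn1a, the p21 inhibitor, went from -3.95 and -3.38 to -0.19 and -0.07 (11.6-fold higher, adjusted p 0.00156), but its other probe was at 0.83, and with the mean of its probes the call was lost (adjusted p 0.161). The cyclin gene Ccnd2 was 2.09-fold lower (adjusted p 0.00975, lost without either unstimulated array or 48 h array 2, up to 0.0651) and Cdk6 2.07-fold lower. Among 23 p53 targets Gadd45a (1.02) was upregulated and Plk2 downregulated, and the median was -0.23. Plk2, a polo-like kinase, was 7.38-fold lower (adjusted p 0.00174). The Gadd45a call was lost without either unstimulated array or 48 h array 2 (adjusted p up to 0.11). Of 22 genes of the BCL2 family and apoptosis 5 were upregulated, led by the inflammatory caspase Casp4, which rose from -0.71 and -0.59 to 2.59 and 3.26 (11.9-fold, adjusted p 0.00159). The executioner gene Casp6 rose 2.78-fold (adjusted p 0.00233). The list had 2 calls without unstimulated array 1 or 48 h array 2.

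Lysosome genes shifted up by small steps. Of 31 tested, 26 had a higher mean, 16 an adjusted p under 0.05 at any fold in that direction (6.99% in the background) and 8 were called at 2-fold, with a median of 0.59. Psap, which encodes the saposins that help degrade sphingolipids, went from 3.59 and 3.77 to 5.14 and 5.32 (2.93-fold, adjusted p 0.00275). Ctsb, cathepsin B, went from 6.20 and 6.56 to 7.48 and 7.68 (2.30-fold, adjusted p 0.0113, lost without unstimulated array 1 or 48 h array 2, up to 0.0628). Mitf, a transcription factor related to the lysosomal regulators and picked after its values were seen, was at 1.05 (lost without unstimulated array 1 or 48 h array 2, adjusted p up to 0.0515). The number called at 2-fold was 1 without unstimulated array 1, 5 without unstimulated array 2 and 2 without 48 h array 2. At any fold, 8 passed with median centring, 10 without either 24 h array, 8 without 48 h array 1, 5 without unstimulated array 2, and 2 without unstimulated array 1 or 48 h array 2. Of 27 glycolysis and hypoxia-responsive genes 3 were upregulated, led by Ndrg1 (7.37-fold, adjusted p 0.0111, lost without either unstimulated array, up to 0.0744). The list had 0 calls without unstimulated array 1 and 1 without unstimulated array 2. The core enzyme genes Gapdh (0.09), Ldha (0) and Aldoa (0.16) were not called. Of 22 unfolded protein response genes 3 were upregulated, among them Trib3 (2.58-fold, adjusted p 0.00822, and 0.0592 without unstimulated array 1), and 0 without unstimulated array 1 and 1 without 48 h array 2.

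Neither the 41 oxidative phosphorylation genes nor the 38 cytosolic ribosomal protein genes held a call. The former had a median of -0.26, with 8 lower at any fold, or 0 or 1 with any 1 array left out. All 38 of the latter were lower on the mean, with a median of -0.22, and 0 passed at any fold. The median of the ribosomal genes was -0.11 after quantile normalization and -0.32 after median centring, so its size depends on the scaling. Of 32 genes of cholesterol and fatty acid synthesis 2 were upregulated (0 without unstimulated array 1, 1 without unstimulated array 2, 48 h array 1 or either 24 h array), with a median of -0.01 whose sign changed under quantile normalization.

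Some genes of other cell types were called. Mrc1, the mannose receptor of macrophages, was at -2.74 and -2.84 in unstimulated cells and at 0.72 and 0.82 at 48 h (11.8-fold, adjusted p 0.000724). Mpeg1, perforin-2, which interferons can induce in other cells, rose from -1.95 and -1.75 to 1.06 and 1.48 (8.68-fold, adjusted p 0.00114). With Ncf4 (at least 3.08-fold, lost without either unstimulated array, adjusted p up to 0.061), 3 of 22 tested macrophage and myeloid markers were upregulated, out of 48 on the array. Without either unstimulated array 2 were. The summed linear signal of these 48 genes, relative to the 75th percentile, was 329.02 and 315.30 in unstimulated cells and 385.59 and 395.14 at 48 h. On the 24 h arrays it was 293.44 and 279.20, below both unstimulated arrays. Spi1, Lyz2 and Laptm5 stayed below background, while Itgam, Fcer1g, Cd14, Ptprc and Emr1 were above it in both groups, as given above. The part of such cells in these values was not tested. The endothelial list had Cdh5 up (log2 fold change 3.97, 1 of 2 unstimulated arrays above background) and Egfl7 2.14-fold lower, of 9 tested, with a summed signal of 28.90 and 21.65 against 23.53 and 20.66. The neuroendocrine list had Scg2, secretogranin II, up (6.23, 1 of 2 unstimulated arrays above background) and Ncam1 2.44-fold lower, of 8 tested, with a summed signal of 48.83 and 48.04 against 43.01 and 44.01. The call of Egfl7 was lost without unstimulated array 1 or either 48 h array (adjusted p up to 0.0731), and that of Ncam1 without unstimulated array 2 or 48 h array 1 (up to 0.0595). Sox9 rose 2.73-fold and Gata3 was 2.59-fold lower (adjusted p 0.0173, lost without any 1 of the 4 arrays compared, up to 0.0882) among 12 tested genes of a prostate epithelial list.

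The values at 48 h were also set beside those at 24 h, in the same fit and against the same unstimulated arrays. By limma, 1 gene had an adjusted p under 0.05 between the times at any fold, and 3057 had an unadjusted p under 0.05. Of the 978 genes upregulated at 48 h, 672 had a higher mean at 48 h than at 24 h, and of the 366 downregulated genes 224 had a lower one. These genes were chosen by their values on the same 48 h arrays, which can raise both counts. The share over all genes tested was not computed, so the counts do not show whether the response was still growing. Some genes named above differed more between the times than others. Postn stood out, with a log2 fold change of 0.76 at 24 h and -3.74 at 48 h (difference -4.51, adjusted p 0.152). Cbr2 was at -0.84 and -3.10 (difference -2.25, adjusted p 0.119), and BC100530 at 7.89 and 10.13 (difference 2.24, adjusted p 0.119). Mpeg1 was at 0.95 and 3.12 (difference 2.17, adjusted p 0.0979), Oas1a at 5.56 and 7.64 (adjusted p 0.26) and H2-Q7 at 2.86 and 4.93 (adjusted p 0.121). None of these differences passed.

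**Figure D5:**
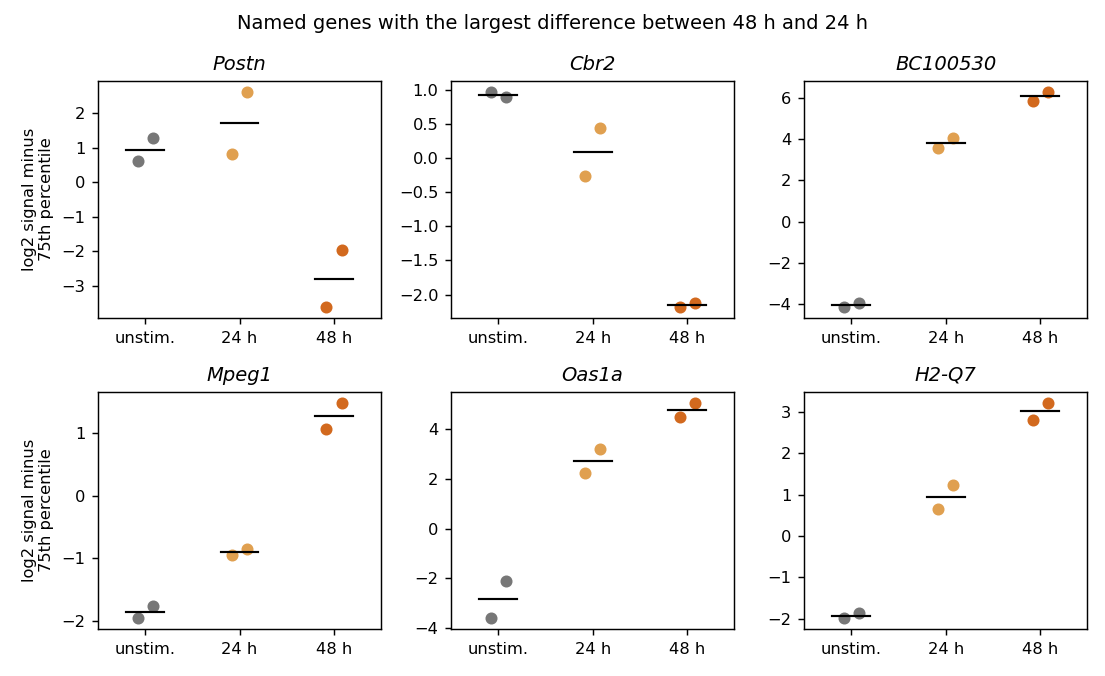
Levels (log2 signal, with the array's 75th percentile subtracted) on each of the 6 arrays for 6 named genes with large differences between 48 h and 24 h, with a bar at each group's mean; each panel has its own y axis. The 24 h arrays lie between the other groups in 5 genes, and in Postn they lie at 0.81 and 2.62, beside 0.62 and 1.28 on the unstimulated arrays.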

How the data were processed

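RNA of 6 cultures was hybridized to Agilent mouse single-color arrays. Per the file headers, the authors extracted spot intensities with Agilent Feature Extraction 11.0.1, which subtracted background and gave gProcessedSignal and flags. A deposited table holds the authors' log2 values of the same arrays, which served as an alternative. Groups came from the labels.

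The log2 of gProcessedSignal was reduced by the 75th percentile over noncontrol spots of the array. Outlier spots were left out, spots of a probe averaged, and the brightest probe taken for a gene, which removed 135 genes whose spots were flagged. All 3 groups were fitted with limma 3.58.1 in R 4.3.3 (with data.table, version 1.17.8), with eBayes, 3 residual and 2.48 prior degrees of freedom, and Benjamini-Hochberg adjustment. A call needed an adjusted p under 0.05 and 2-fold. The steps were tested on simulated data. The number of arrays limits the precision.

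Genes were named as the 10 largest increases and decreases under a current RefSeq symbol with signal on all 4 arrays, the 5 largest limits in each direction, the 3 largest calls in each direction of each of the 44 lists, and Csf1r, Csf1, Il34, Spp1, Krt8 and Krt18, beside genes that are not reported here; others are marked in the text. The members and lists were chosen with earlier results of these data known, and the lists were written from general knowledge. Alternatives were other normalizations (quantile, median centring, normexp with an offset of 50), the authors' log2 values, no filter or a stricter one, the mean of a gene's probes, outlier spots kept, an intensity trend, the 4 arrays alone, a replicate block, a slide block, each array left out, and the methods' t-test. Names were matched to RefSeq for 15267 tested genes. Promoters came from RefSeq (GRCm38.p6), while probe positions are in mm9 as in the files. Figures were drawn with matplotlib 3.10.9.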

Additional observations from a re-analysis of the deposited data

Results flagged for a closer look

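One gene, Gm7897, differed between the stimulation times in the direct test of 48 h against 24 h, which is why it is listed here. It was named after its values were seen. Its probe (chr1:175754800-175754859, minus strand, mm9) was at -6.77 and -6.74 in unstimulated cells, at -6.16 and -6.23 after 24 h and at -3.37 and -3.03 after 48 h. It was well above background on both 48 h arrays and on 0 of 2 unstimulated arrays. The fitted log2 difference between 48 h and 24 h was 2.99 (limma, adjusted p 0.0493), higher on both 48 h arrays than on both 24 h arrays. Both 24 h levels lay below the lowest signal well above background on their arrays (-4.48 and -4.26). The size of this difference is therefore not reliable, and no lower limit was computed for it. Against unstimulated cells it rose at least 2.88-fold (adjusted p 0.000724), a call that was lost under both normexp settings.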

How the results depend on the processing

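Among all 23932 genes, 978 rose and 366 fell. Median centring gave 880 up and 560 down, normexp background correction 645 and 222 (with quantile normalization 659 and 196), and no filter on dim probes 629 and 181. The methods' t-test called 0 and 0 genes after Benjamini-Hochberg adjustment, and 814 and 335 at an unadjusted p under 0.05. With single arrays left out the counts were 632 to 907 up and 238 to 368 down. A lone array was then assumed to vary like the other groups. Of the gene values under alternatives, 3351 kept their side of the threshold and 587 lost the call. The 587 include every called gene under the adjusted t-test, which called 0 genes. A change of direction was counted for called genes only, and 0 of them had one. Among genes not called, Csf1r ran from -0.20 to 0.06. The 4 arrays alone, the slide block and either 24 h array left out each gave 907 up and 368 down, so they are not separate checks. In these, and under the replicate block, the intensity trend and the t-test, the fold change is that of the main fit. Its direction could not change there. Of the genes named, Dlc1, Ptpn6, H2-DMb1, Il18, Gadd45a, Rdh10, Ncf4, Spry1 and Dusp1 lost their call under both normexp settings. So did Nrg1, Krt7, Pkp2, Col12a1, Cdk6, Fes, Mitf and Gm7897. Under median centring the calls of Pttg1, Gadd45a, Fbln1, Fes, Timp1 and Mitf were lost. The cause of these changes was not tested. Few arrays and signal near background limit the smaller changes.

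The replicate block gave 1026 up and 382 down. Deviations of same-numbered arrays had correlations of 0.126, 0.144 and 0.224 between groups. Per the methods, RNA came from 2 independent experiments, and the main fit used no pairing by experiment. The labels give only 2 numbers and no shared day, so whether arrays of the same number share an experiment is not settled. Of the genes named in the text, Erbb4 and Krt7 lost their call under the block.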
